A study of Mus musculus with 6 samples.

Results

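ABC transporter genes, which code for proteins with an ATP-binding cassette, were examined by RNA-Seq in cultured mouse mesangial cells, which hold up the capillaries of the kidney's filter, the glomerulus, and can contract. Members were all genes whose symbol starts with Abc, followed by a subfamily letter from a to g, a number and at most 1 further letter. This rule uses only the symbol, and it found 42 of the 19730 genes and transcripts in the table, each once. They fell into subfamilies A (14 genes), B (8), C (7), D (4), E (1), F (3) and G (5). Superfamily members with other names, such as Cftr and Tap1, were outside the rule and were kept apart. The Control group held 3 libraries of primary cells in high-glucose medium with 25.5 mM glucose and 20% serum, used at passages 3 to 6, and no genotype or strain was given for either group. The TGF-β1 group held 3 libraries of such cells given TGF-β1, a secreted protein known to drive scarring, at 10 ng/ml for 72 h. Nothing in the labels says that replicates came from separate animals, so p-values measure the spread between these samples, which may be technical.

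Most ABC proteins use the energy of ATP to move lipids, peptides, drugs or conjugated metabolites across a membrane. Those of subfamilies A and G mainly move lipids, those of B and C export drugs, bile salts, peptides and glutathione conjugates, with several B members in mitochondria, and those of D carry fatty acids and cobalamin in peroxisomes and lysosomes. The E and F proteins keep the ATP-binding cassettes but have no membrane part, and they act on ribosomes. In the kidney the family is best known for the export of drugs and organic anions and for the removal of cholesterol from glomerular cells.

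The depth recovered from the smallest steps of the values was 10.0 to 11.2 M fragments a library (M for mega). Pearson's r across genes was 0.876 to 0.940 between libraries of a group and 0.818 to 0.853 between the groups. FPKM is fragments per kilobase of transcript and per M of mapped fragments, and 1 FPKM in a transcript of 5000 nt rests on 48.1 to 53.6 fragments. Of the mesangial and pericyte markers, 4 of 10 were at 1 FPKM or more in every library, whereas Itga8, Des and Thy1 were under 1 FPKM in all. The list summed to 3109 to 3662 FPKM in Control and 7417 to 7736 FPKM with TGF-β1, with Acta2 at 912 to 1091 and 3587 to 4268 FPKM, Vim at 1922 to 2376 and 3249 to 3598 FPKM, and Pdgfrb at 32.0 to 41.1 and 28.4 to 29.9 FPKM. Summed endothelial markers were at 0.743 to 0.969 FPKM in Control and 0.440 to 1.15 FPKM with TGF-β1, summed podocyte markers at 19.7 to 24.9 and 12.6 to 13.7 FPKM, and summed macrophage markers at 8.19 to 9.58 and 2.26 to 3.24 FPKM. Of the 4 tubular markers found, Cdh16, a kidney cadherin, was at 114 to 146 FPKM in Control and 5.75 to 6.88 FPKM with TGF-β1, while Cdh1 was at or near 0, and the list summed to 115 to 148 and 6.08 to 7.15 FPKM. The part of these markers in the results below was not tested. In bulk RNA, fewer cells of a type and less RNA per cell cannot be told apart.

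Sequences are shown first for the genes on which the results turn. Windows of RefSeq (build GRCm38.p6) that cover 250 bases before the start of a gene were found for 31 of the 42 members. Those of Abca1, the member with the smallest adjusted p, and of Abce1, the member with the largest increase, are given 5′ to 3′ on the strand of the gene, with every match to the motifs named below in capitals. The window of Abca1 is chr4:53159896-53160145 on the minus strand and that of Abce1 is chr8:79711741-79711990 on the minus strand.
Abca1: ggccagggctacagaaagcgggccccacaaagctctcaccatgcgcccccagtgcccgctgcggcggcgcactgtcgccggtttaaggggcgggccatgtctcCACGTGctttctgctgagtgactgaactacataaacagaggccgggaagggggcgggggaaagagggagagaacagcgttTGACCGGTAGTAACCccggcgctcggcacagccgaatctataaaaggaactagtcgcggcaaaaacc
Abce1: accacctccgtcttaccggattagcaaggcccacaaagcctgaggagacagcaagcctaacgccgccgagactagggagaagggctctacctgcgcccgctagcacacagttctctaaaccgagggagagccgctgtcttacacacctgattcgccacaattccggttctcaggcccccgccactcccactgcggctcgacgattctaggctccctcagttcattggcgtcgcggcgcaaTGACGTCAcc

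A total of 5 motifs were searched on both strands. The E-box CACGTG was in 6.02% of all 32851 windows and in those of 4 members (Abca1, Abca15, Abcc4 and Abcf1). A repeat of the nuclear receptor half-site GGTNA with 5 bases between the copies, the layout in which LXR (liver X receptor), a sensor of oxidized cholesterol, binds DNA, was in 0.621% of windows. Among members it was in that of Abca1 alone, on the strand opposite to that of the gene, 67 to 53 bases before the start. The cyclic AMP response element TGACGTCA was in 1.55% of windows and in those of Abce1 and Abcg2. The AP-1 motif TGANTCA (6.75% of windows) and the SMAD box GTCTAGAC (0.167%) had no match in the 38 member windows. No 2 matches in member windows overlapped. A match describes the letters only, and so does its absence.

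Abcb1a and Abcb1b code for the drug efflux pumps of the P-glycoprotein type and are neighbours on chromosome 5. Their coding sequences were identical at 88.0% of 3822 aligned positions, and the longest identical run was 338 nt. Of the 50-nt words of Abcb1a, 20.3% were also in Abcb1b, so a read that falls within such a stretch cannot be assigned to either gene by its letters. The part of this run that codes for the ABC signature, the short motif that touches ATP throughout the family, is shown. It is printed from the start of its exon to shortly past the end of the run. Both are in exon 14 of 28 on the plus strand of mm9, at chr5:8702793-8702959 in Abcb1a and chr5:8825113-8825279 in Abcb1b, and capitals mark the 1 base that differs.
Abcb1a: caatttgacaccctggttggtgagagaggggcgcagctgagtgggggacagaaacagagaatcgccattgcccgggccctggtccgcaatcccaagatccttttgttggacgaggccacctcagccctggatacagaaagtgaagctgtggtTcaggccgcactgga
Abcb1b: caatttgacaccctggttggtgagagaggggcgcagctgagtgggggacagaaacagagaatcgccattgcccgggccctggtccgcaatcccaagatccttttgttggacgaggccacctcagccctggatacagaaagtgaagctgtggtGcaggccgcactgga

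Of the 18 tested members with a membrane part (subfamilies A to D and G), 10 fell and 2 rose with TGF-β1, and of the 4 tested ribosome-associated members (E and F), 2 rose and 2 were not called. Differences were tested with limma on log2(FPKM + 1) across all 11898 genes and transcripts with a mean of at least 1 FPKM, and an adjusted p under 0.05 was called. Of the 42 members, 22 passed this minimum. Of these, 14 were called, 4 up and 10 down, and 8 were not called. This is 63.6% of tested members, against 48.1% of all tested genes, with 18.2% up against 24.5% of all and 45.5% down against 23.6% of all. The median change of the tested members was -0.41 on the log2(FPKM + 1) scale, against -0.02 for all tested genes. The groups did not overlap in 16 of the 22 members (11 lower and 5 higher), against 59.4% of all tested genes. Changes of at least 2-fold on this scale were called in 3 members (Abca1, Abcc3 and Abcc5), against 13.9% of all tested genes. Of these, Abcc3 passed the minimum only through its Control values. With upper quartile scaling of the libraries the split was 2 up and 11 down, against 2573 up and 3121 down among all tested genes. With quantile normalization it was 4 up and 8 down, against 2913 up and 2600 down.

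The replicate 2 libraries deviated from their group means in a shared direction more than the others did. Among tested members they were the highest of both groups in 4 (Abca2, Abcb8, Abcc1 and Abcd3), the lowest of both in 2 (Abca7 and Abcc10) and neither in 16. The share of all tested genes with either pattern was not counted, so these counts describe the members only. With replicate 2 as a batch term 3 members were up and 9 down, against 2985 up and 2962 down among all 11898 tested genes. In replicates 1 and 3 alone 2 members were up and 7 down, against 2161 up and 2034 down among all.

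**Figure D1:**
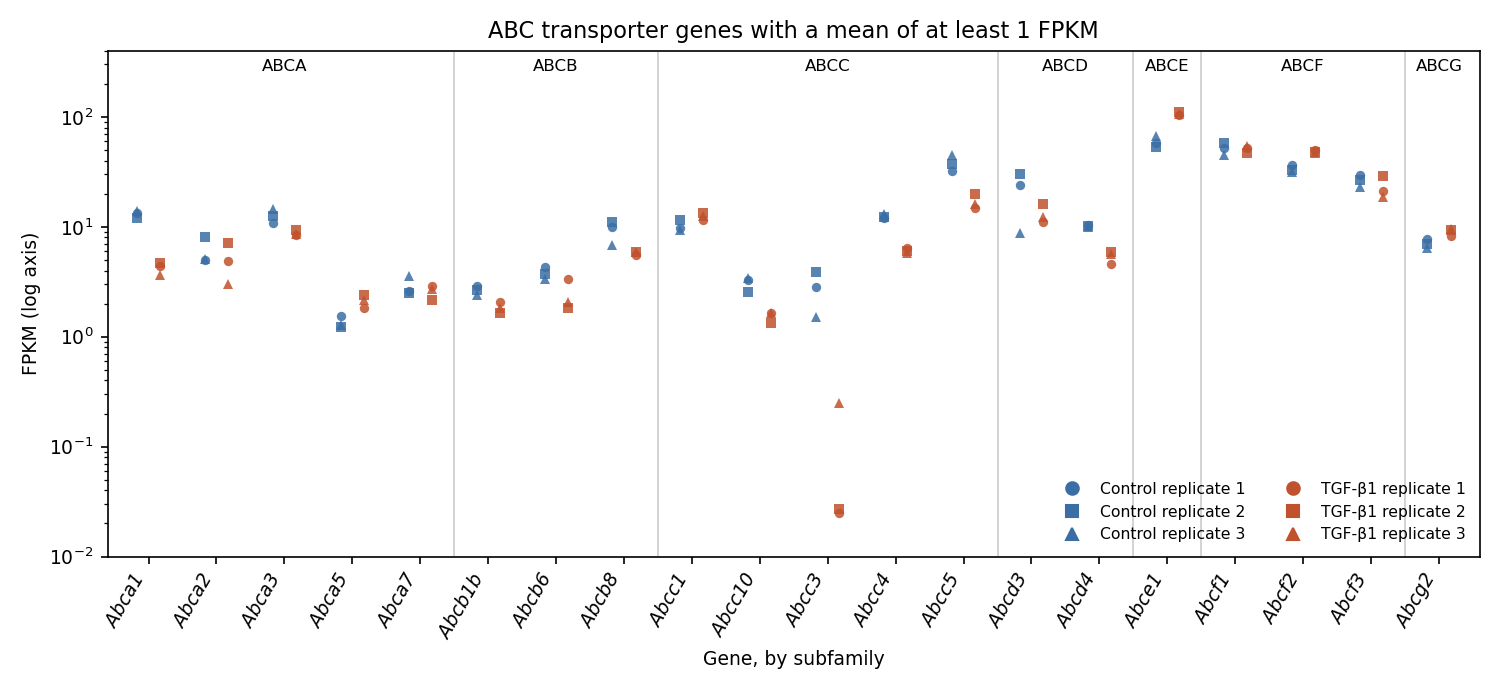
FPKM of 20 of the 22 tested members in each library (log axis), ordered by subfamily, with blue for Control, orange for TGF-β1 and the marker shape for the replicate. Abca1, Abcc4, Abcc5 and Abcd4 are lower in every TGF-β1 library, and Abce1 and Abcf2 are higher in every one.

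**Figure D2:**
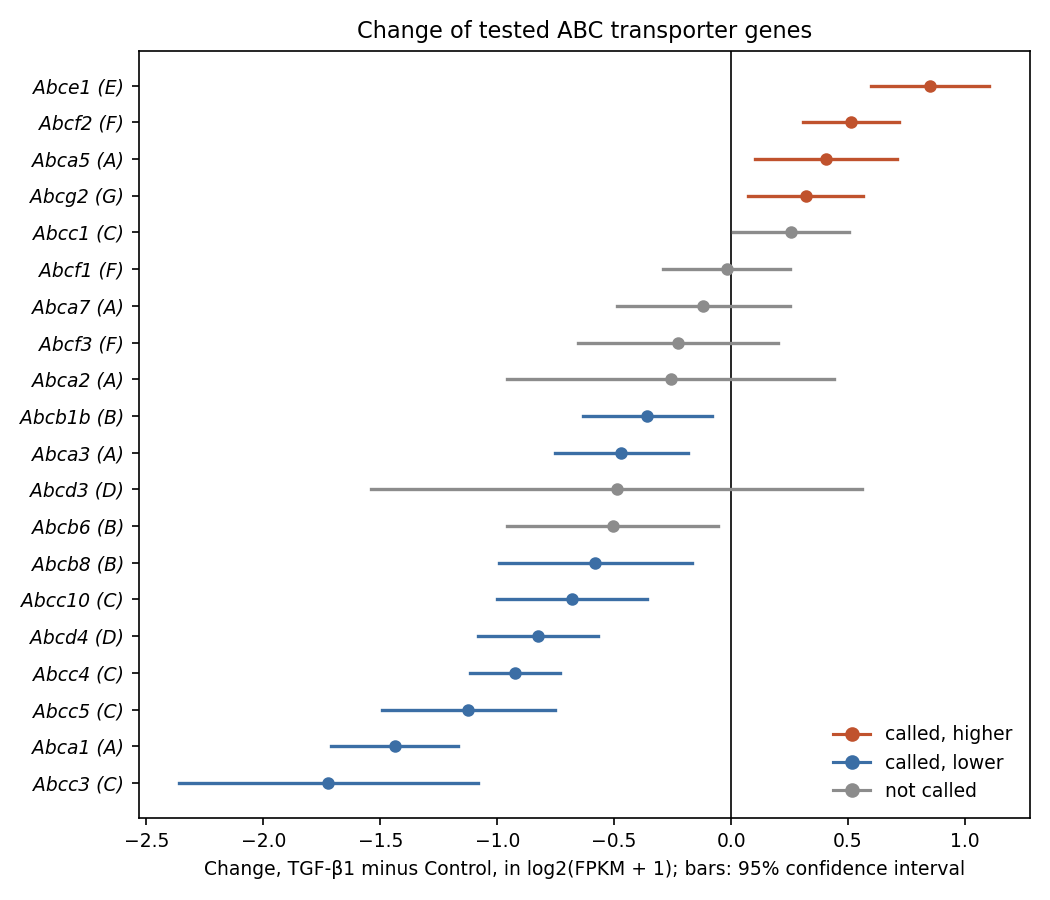
Change of 20 of the 22 tested members (TGF-β1 minus Control, on the log2(FPKM + 1) scale, subfamily in brackets) with its 95% confidence interval from limma, in orange for called increases, blue for called decreases and grey for members not called. Changes run from -1.72 in Abcc3 to 0.85 in Abce1, and Abcc3, Abca1 and Abcc5 are the 3 below -1.

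The summed FPKM of all 42 members was 333 to 358 in the Control libraries and 332 to 355 with TGF-β1, so the total overlapped between the groups. Subfamilies A to D and G together summed to 170, 188 and 166 FPKM in Control replicates 1 to 3 and to 104, 119 and 107 FPKM in TGF-β1 replicates 1 to 3. Subfamilies E and F summed to 177, 170 and 167.5 FPKM in Control and to 228, 235 and 225 FPKM with TGF-β1. The ranges of these sums did not overlap between groups. The E and F members made up 47.4% to 50.9% of the summed FPKM in Control and 66.4% to 68.7% with TGF-β1, and Abce1 alone 14.7% to 20.2% and 31.5% to 31.9%. These sums are descriptions, were not tested and rest in part on values of short transcripts, named below.

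**Figure D3:**
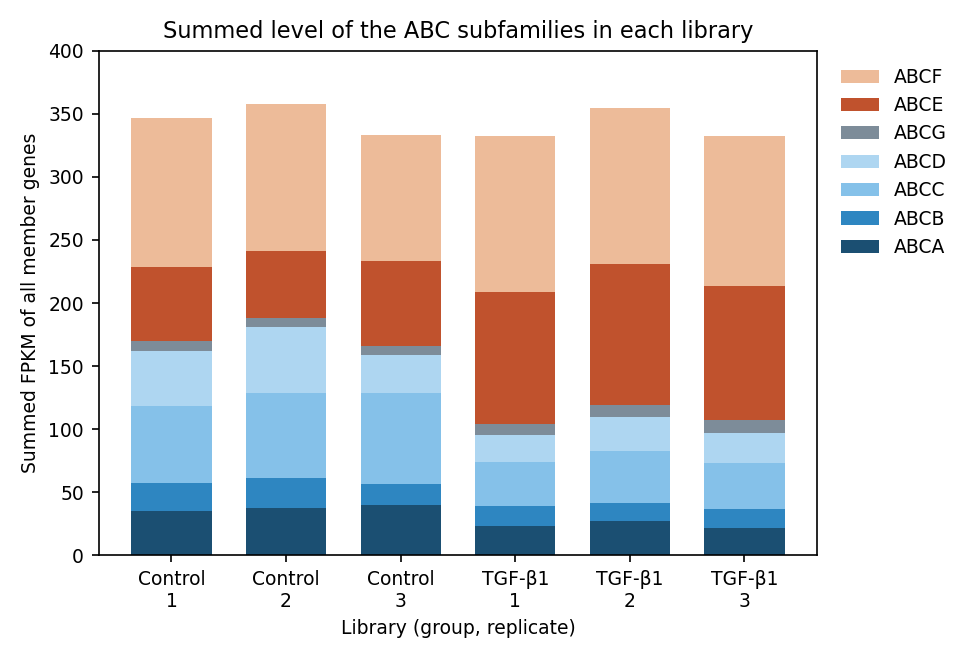
Summed FPKM of the members of each subfamily (stacked bars) in the 3 Control and 3 TGF-β1 libraries. The bars reach 332 to 358 FPKM, and the share of ABCE and ABCF is larger in every TGF-β1 library.

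In subfamily A, 5 of 14 genes were tested, 1 was up and 2 were down. Abca1, which loads cellular cholesterol and phospholipid onto apolipoprotein A-I, was at 13.4, 12.0 and 14.1 FPKM in Control and at 4.36, 4.72 and 3.63 FPKM with TGF-β1. The highest TGF-β1 library was far below the lowest Control library. Its mean was 13.2 ± 1.03 FPKM in Control and 4.24 ± 0.555 FPKM with TGF-β1 (SD, n = 3), or 3.11-fold lower. The log2 change was -1.44 (SE 0.11, limma adjusted p 1.90e-04). The gene lies on mm9 chromosome 4 (53043659 to 53172767) and stayed called with each library left out in turn. Abca3, a phospholipid carrier of lysosome-related organelles, was at 10.7, 12.6 and 14.4 FPKM in Control and 8.36, 9.31 and 8.61 FPKM with TGF-β1. Its log2 change was -0.47 (SE 0.12, limma adjusted p 0.0183), and the call was lost without Control replicate 2, TGF-β1 replicate 1 or TGF-β1 replicate 3, at limma adjusted p-values of 0.0566, 0.0670 and 0.0597. Its value carries the identifier of a retained-intron transcript, and Gm10506 overlaps the gene on the same strand. No strand-specific counting is stated, so fragments of overlapping genes cannot be told apart.

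Abca5, a lysosomal lipid transporter, ran the other way, at 1.55, 1.23 and 1.27 FPKM in Control and 1.83, 2.38 and 2.15 FPKM with TGF-β1. The 2 groups were apart, and the log2 change was 0.41 (SE 0.13, limma adjusted p 0.0379). This call stood in only 2 of the 6 fits that left out 1 library, those without Control replicate 1 or TGF-β1 replicate 1, with limma adjusted p-values of 0.0391 to 0.0873 over the 6. It was also lost with upper quartile scaling, at 0.0536, and with replicate 2 as a batch term, at 0.0548. Abca2 and Abca7 were not called, at log2 changes of -0.26 (95% interval -0.96 to 0.44) and -0.12 (-0.49 to 0.25). Abca2, a lipid transporter of the endosome and lysosome, was highest in the replicate 2 library of both groups, with 8.05 FPKM against 5.04 and 5.08 in Control and 7.15 FPKM against 4.89 and 3.04 with TGF-β1. Its groups overlapped.

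Abca5 sits in a row of related genes on mm9 chromosome 11. The members found there were, from low to high coordinate, Abca8b, Abca9, Abca6 and Abca5. Abca9 and Abca6 did not pass the minimum, and they moved in opposite directions. Abca9 was at 0.494, 0.564 and 0.367 FPKM in Control and 0.0552, 0.0160 and 0.0149 FPKM with TGF-β1, where the last 2 values are about 1 fragment each. Abca6 was at 0.222, 0.163 and 0.223 FPKM in Control and 0.514, 0.384 and 0.670 FPKM with TGF-β1, or about 9.16 to 12.3 and 19.4 to 36.2 fragments. In the fit without the minimum both were called, Abca9 at a log2 change of -0.52 (limma adjusted p 0.00227) and Abca6 at 0.34 (0.0273). Of all genes and transcripts under the minimum, 11.7% were called in that fit. Abca5 was not called in it, at a limma adjusted p of 0.0512. Abca8b was at 0.180 to 0.237 FPKM in Control and 0.155 to 0.281 FPKM with TGF-β1, and its groups overlapped. Of these members, in the stretch from 109793504 to 110199030, 1 was lower and 2 were higher in every TGF-β1 library than in any Control library, whether called or not. In 1 the groups overlapped.

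In subfamily B, 4 of 8 genes were tested. Abcb8, a mitochondrial transporter, was at 10.04, 11.04 and 6.78 FPKM in Control and 5.60, 5.85 and 5.84 FPKM with TGF-β1. The TGF-β1 libraries were close together and all below the lowest Control library. The log2 change was -0.58 (SE 0.17, limma adjusted p 0.0313). The call stood only without Control replicate 3 among the fits that left out 1 library (adjusted p 0.00269 there and 0.0724 to 0.0965 in the other 5), and it was lost with quantile normalization at 0.0594. The value carries the identifier of an 830-nt transcript, on which it would rest on 37.0 to 77.7 fragments a library. Abcb6, a porphyrin transporter, was at 4.30, 3.69 and 3.37 FPKM in Control and 3.35, 1.84 and 2.07 FPKM with TGF-β1. Its groups did not overlap, by a narrow margin, and it was not called, with a log2 change of -0.51 (95% interval -0.96 to -0.06, limma adjusted p 0.0647). It was called without TGF-β1 replicate 1, at 0.0153, and with upper quartile scaling, at 0.0460.

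The P-glycoprotein pair is described together, since their reads overlap. Abcb1b (mm9 chromosome 5, 8798147 to 8866314) was at 2.88, 2.65 and 2.42 FPKM in Control and 2.07, 1.64 and 1.83 FPKM with TGF-β1. All TGF-β1 values were below all Control values, and the log2 change was -0.36 (SE 0.11, limma adjusted p 0.0410). Among the fits that left out 1 library it was called only without Control replicate 3 (adjusted p 0.0401 there and 0.0533 to 0.0968 in the others), and quantile normalization gave 0.341. Gm5106 overlaps it on the opposite strand. Abcb1a (8660077 to 8748575) averaged under 1 FPKM and was at 0.0722, 1.21 and 0.0580 FPKM in Control and 0.985, 1.95 and 0.774 FPKM with TGF-β1. These are about 3.80, 64.9 and 3.00 fragments in Control and 51.2, 93.9 and 39.8 fragments with TGF-β1. The replicate 2 library was the highest of each group, and Control replicate 2 lay above TGF-β1 replicates 1 and 3, so the groups overlapped. In the fit without the minimum its log2 change was 0.68 (SE 0.35, limma adjusted p 0.201). The identical stretches shown above limit the separation of both genes. Abcb4, their neighbour and the phospholipid exporter of bile, was at most 0.146 FPKM in every library.

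In subfamily C, 5 of 7 genes were tested, 4 were down and 1 was not called, with a median log2 change of -0.92. Abcc3 exports bile salts and glucuronides. It was at 2.84, 3.91 and 1.505 FPKM in Control and 0.0250, 0.0271 and 0.250 FPKM with TGF-β1. On the 4999-nt transcript whose identifier they carry, the TGF-β1 values would rest on about 1.30, 1.30 and 12.8 fragments, against 77.8 to 209 in Control. These are not whole numbers, so the length behind the values may differ. No library of one group reached the other. Its log2 change of -1.72 (SE 0.26, limma adjusted p 0.00264) had the largest size among tested members, and with a pseudocount of 0.1 in place of 1 it was -3.91. Abcc3 passed the minimum only through Control (mean 2.75 FPKM, against 0.101 FPKM with TGF-β1). A gene kept in this way can be called only as a fall. The gene lies on mm9 chromosome 11, from 94204612 to 94254311.

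Abcc5 and Abcc4 export cyclic nucleotides and other organic anions. Abcc5 (mm9 chromosome 16, 20331376 to 20426467), the member with the highest mean FPKM outside subfamilies E and F, was at 32.5, 37.5 and 44.9 FPKM in Control and 14.97, 19.9 and 16.2 FPKM with TGF-β1. Its highest TGF-β1 value was well under its lowest Control value, and the log2 change was -1.12 (SE 0.15, limma adjusted p 0.00164). Abcc4 (mm9 chromosome 14, 118881914 to 119105441) was at 12.1, 12.2 and 13.2 FPKM in Control and 6.38, 6.09 and 5.84 FPKM with TGF-β1. Each group lay within a narrow range, and the log2 change was -0.92 (SE 0.08, limma adjusted p 2.69e-04). Abcc10, a lipophilic anion pump, was at 3.25, 2.55 and 3.45 FPKM in Control and 1.65, 1.32 and 1.65 FPKM with TGF-β1. Its log2 change was -0.68 (SE 0.13, limma adjusted p 0.00703), and Dlk2 overlaps it on the opposite strand. These 4 genes were each called in all 6 fits that left out 1 library.

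Abcc1, an exporter of glutathione and its conjugates, differed in direction from the other tested C members. It was at 9.79, 11.5 and 9.45 FPKM in Control and 11.5, 13.2 and 12.4 FPKM with TGF-β1. The lowest TGF-β1 library was barely above the highest Control library, and the change of 0.26 (95% interval 0.01 to 0.50) was not called at a limma adjusted p of 0.0821. It was called without Control replicate 2, at 0.0479, and with replicate 2 as a batch term, at 0.0433. The value carries the identifier of a transcript annotated for nonsense-mediated decay.

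Subfamily D had 4 genes, of which 3 were tested. Abcd4, which takes part in the release of cobalamin from lysosomes, was at 10.4, 10.2 and 9.99 FPKM in Control and 4.55, 5.87 and 5.61 FPKM with TGF-β1. Its log2 change was -0.83 (SE 0.11, limma adjusted p 0.00126), all TGF-β1 values were below all Control values, and it was called without any 1 library. Abcd3, a peroxisomal fatty acid carrier and the D member with the highest mean FPKM, was at 24.1, 30.5 and 8.79 FPKM in Control and 11.1, 16.2 and 12.4 FPKM with TGF-β1. Control replicate 3 lay below all TGF-β1 libraries, and the change of -0.49 (95% interval -1.54 to 0.56) was not called. Without that library it was called, at a limma adjusted p of 0.0118. The value carries the identifier of a 308-nt processed transcript, on which it would rest on 10.3 to 37.1 fragments.

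The single member of subfamily E and 1 of the 3 of subfamily F were up. Abce1, which splits ribosomes after termination so that they can be used again, was at 58.2, 52.8 and 67.4 FPKM in Control and 105, 112 and 106 FPKM with TGF-β1. It was the most abundant member in every TGF-β1 library and was well above the Control range in each. The Control mean of 59.4 ± 7.40 FPKM and the TGF-β1 mean of 108 ± 3.71 FPKM (SD, n = 3) differed 1.81-fold. On the log2 scale the change was 0.85 (SE 0.10, limma adjusted p 0.00109). The gene lies on mm9 chromosome 8, from 82207341 to 82235639. Abcf2, a cytosolic ATPase of the ribosome-binding type, was at 36.8, 32.6 and 31.5 FPKM in Control and 50.1, 48.3 and 46.7 FPKM with TGF-β1. Its log2 change was 0.51 (SE 0.08, limma adjusted p 0.00355), and both increases were called without any 1 library.

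The other F members were not called. Abcf1, which promotes translation initiation, was at 52.0, 57.8 and 45.5 FPKM in Control and 52.2, 46.7 and 54.0 FPKM with TGF-β1. Its change was -0.02 with a 95% interval of -0.29 to 0.25, and the groups overlapped. Abcf3 was at 23.2 to 29.8 FPKM in Control and 18.5 to 28.7 FPKM with TGF-β1, a change of -0.23 (95% interval -0.65 to 0.20).

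In subfamily G, only Abcg2 was tested, and it was up. Abcg2, an exporter of urate, drugs and porphyrins, was at 7.80, 6.97 and 6.42 FPKM in Control and 8.27, 9.41 and 9.48 FPKM with TGF-β1. The lowest TGF-β1 library was just above the highest Control library, and the log2 change was 0.32 (SE 0.10, limma adjusted p 0.0411). It was called in only 1 of the 6 fits that left out 1 library, that without Control replicate 1, with limma adjusted p-values of 0.0381 to 0.125. The call was also lost with upper quartile scaling, at 0.0778. The value carries the identifier of a 464-nt transcript, on which it would rest on 18.3 to 26.9 fragments a library. Abcg1, the partner of Abca1 in cholesterol efflux, was listed at 0 in 5 libraries and at 0.0542 FPKM in TGF-β1 replicate 3.

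Of the 42 members, 20 were under the minimum and are given as values. Each had a value above 0 in at least 1 library, but 14 were listed at 0 in at least 1 library, and 9 did not exceed 0.15 FPKM in any library. The groups did not overlap in 4 of the 20 (Abca6, Abca9, Abcb9 and Abcg8), against 20.9% of all genes and transcripts under the minimum. In the fit without the minimum 3 were called (Abca6 up, Abca9 and Abcb9 down), against 11.7% of all under the minimum. Abcb9, a lysosomal peptide transporter, was at 0.891, 0.638 and 0.835 FPKM in Control and 0.295, 0.241 and 0.485 FPKM with TGF-β1, and its log2 change in that fit was -0.42 (limma adjusted p 0.0257). Abcg8, a subunit of the sterol exporter of liver and gut, was at 0.0803 to 0.183 FPKM in Control, while its highest TGF-β1 value was 0.0706 FPKM (limma adjusted p 0.115), and it overlaps Abcg5 on the opposite strand. Abcd2, a peroxisomal fatty acid carrier, did not exceed 0.239 FPKM, and Abcc9, the regulatory subunit of a potassium channel of vascular cells, did not exceed 0.0741 FPKM. The highest values of Abca4, the retinoid carrier of photoreceptors, and of Abcg4, a sterol transporter of the brain, were 0.526 and 0.525 FPKM, with overlapping groups. Abca17 reached 0.282 FPKM and Abcg3 0.163 FPKM, and the remaining low members (Abca12, Abca13, Abca15, Abca16, Abcb11 and Abcc6) did not exceed 0.0449 FPKM.

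**Figure D4:**
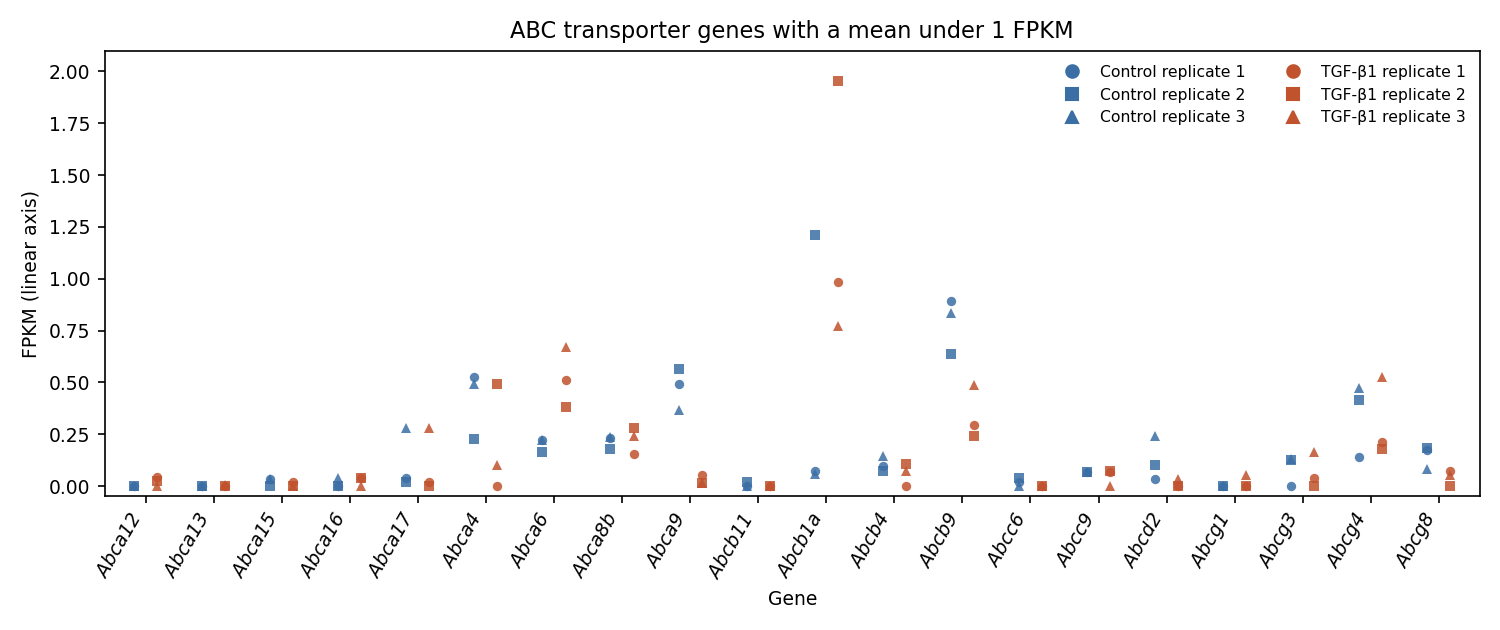
FPKM of the 20 members with a mean under 1 FPKM in each library (linear axis), with blue for Control, orange for TGF-β1 and the marker shape for the replicate. Abca9 and Abcb9 are lower and Abca6 is higher in every TGF-β1 library, and Abcb1a is highest in replicate 2 of both groups, at 1.21 and 1.95 FPKM.

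Genes that work with the transporters were read from the same fit. Of the cholesterol efflux and LXR list, 20 of 24 genes were tested, 4 were up and 9 were down, with a median log2 change of -0.07, or 65.0% called against 48.1% of all tested genes. Mylip, an LXR target and ubiquitin ligase, had the largest fall, from 8.19, 6.80 and 10.3 FPKM to 2.42, 2.28 and 1.78 FPKM (log2 change -1.57, limma adjusted p 5.52e-04). Scd1, a fatty acid desaturase, had the largest rise, from 13.0 to 14.2 FPKM to 64.2 to 71.0 FPKM (log2 change 2.24, limma adjusted p 1.13e-05). Other members down were Apoe and Pltp, carriers of lipid outside the cell, and Rxra, the partner receptor of LXR, at log2 changes of -0.77, -1.17 and -1.08. Nr1h2, which codes for LXRβ, was not called (26.1 to 49.9 FPKM over all libraries), and Nr1h3, which codes for LXRα, did not exceed 0.432 FPKM. These last 5 genes were named after their values were seen.

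Of the glutathione list, 14 of 18 genes were tested, 3 were up and 8 were down, with a median log2 change of -0.69. In all, 78.6% were called, against 48.1% of all tested genes. Gstm1, a glutathione transferase, had the largest fall, from 224, 248 and 193 FPKM to 16.2, 17.4 and 13.9 FPKM (log2 change -3.72, limma adjusted p 1.13e-05). Gsto1, a transferase of the omega class, had the largest rise, from 85.5, 61.3 and 64.1 FPKM to 303, 251 and 301 FPKM (log2 change 2.01, limma adjusted p 1.68e-04). The list thus held large changes in both directions.

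Of the list for ribosome recycling, termination and the GCN2 pathway, 14 of 14 genes were tested, 9 were up and 1 was down, with a median log2 change of 0.49. In this list 71.4% were called, against 48.1% of all tested genes. Eif2s2, a subunit of the initiation factor eIF2, had the largest rise, from 140, 152 and 148 FPKM to 270, 310 and 284 FPKM (log2 change 0.97, limma adjusted p 2.76e-04). The 1 gene down was Pelo, whose product rescues stalled ribosomes together with the protein of Abce1, from 21.5, 17.4 and 23.0 FPKM to 13.3, 14.3 and 12.5 FPKM (log2 change -0.58, limma adjusted p 0.00858). Abce1 and Pelo therefore differed in direction.

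Of the heme and iron-sulfur list, 20 of 21 genes were tested, 2 were up and 7 were down (45.0% called against 48.1% of all tested genes, median log2 change -0.15), with the largest rise in Slc25a37, a mitochondrial iron importer (0.76), and the largest fall in Ppox, an enzyme of heme synthesis (-0.84), closely followed by Alad, another one (-0.84). Of the peroxisomal list, 19 of 20 were tested, 3 were up and 3 were down (31.6% called against 48.1%, median -0.03), with the largest rise in Amacr, a racemase of branched fatty acids (0.64), and the largest fall in Pex6, an ATPase that recycles the import receptor (-0.85). Pex3 and Pex19, the insertion factors for peroxisomal membrane proteins, were not called. Of the xenobiotic receptors, 5 of 8 were tested, 3 were not called and 2 were down (40.0% called against 48.1%). These were Nr1h4, the bile acid receptor, from 1.64 to 2.01 FPKM to 0.218 to 0.259 FPKM (log2 change -1.21, limma adjusted p 5.23e-04), and Keap1 (-0.50). Nr1h4 passed the minimum only through its Control values. Nr1i2 and Nr1i3, the receptors best known to induce drug transporters in liver, did not exceed 0.189 FPKM. Of the ABC superfamily members outside the symbol rule and their partners, 3 of 6 were tested and 0 were called by limma, against 48.1% of all tested genes, with 0 at an unadjusted p under 0.05, while 1 was called without the minimum. Tap1 was at 3.73 to 4.38 FPKM in Control and 3.95 to 5.38 FPKM with TGF-β1. Cftr, a chloride channel, was under the minimum, at 0.211, 0.362 and 0.463 FPKM in Control and 0.0455, 0.0657 and 0.0223 FPKM with TGF-β1. Its groups did not overlap, and it was the gene called without the minimum, where its log2 change was -0.36 (SE 0.08, limma adjusted p 0.0166).

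**Figure D5:**
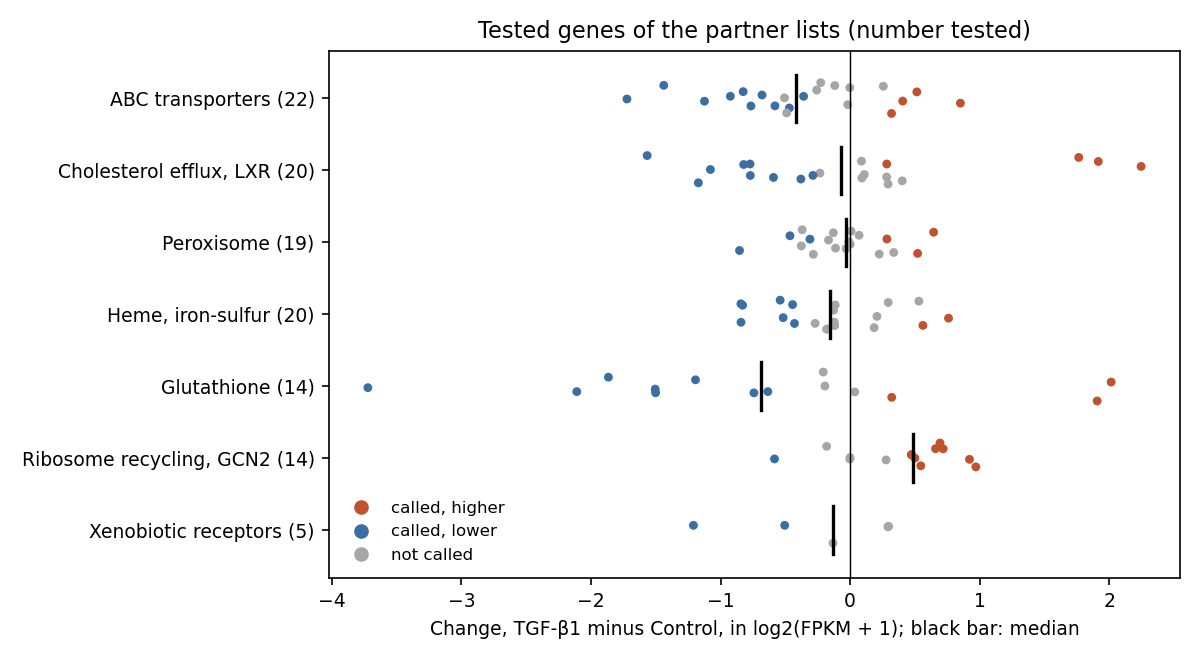
Change of every tested gene (points) of the ABC transporters and of 6 lists of genes that work with them, as TGF-β1 minus Control on the log2(FPKM + 1) scale, with the number tested in brackets and the median as a black bar, in orange for called increases and blue for called decreases. The median is -0.41 for the ABC transporters, -0.69 for the glutathione list and 0.49 for the ribosome list, and the other 4 medians lie between -0.15 and -0.03.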

How the data were processed

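The 3 RNA-Seq libraries of Control cells and 3 of TGF-β1-treated cells were compared, grouped and numbered by the sample labels. After the authors discarded reads of low quality, they mapped the remainder to mm9 with TopHat and deposited FPKM values from Cufflinks, 1 column a library, with no further scaling between libraries stated. It is not stated whether a value belongs to the gene or to the transcript whose identifier it carries. Annotation was GENCODE M1 on mm9, in which all 42 members were found.

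Depth was recovered from single-transcript genes, in which 99.5% to 99.9% of low values were whole fragments (within 0.1) at an assumed fragment length of 200 nt. Values per transcript of few fragments are imprecise, and fragment numbers cover counting error only. Fragment numbers of members assume the length of the transcript whose identifier the value carries, so they are approximate and need not be whole. Because the values are FPKM, the study's count model (DESeq) was not used. limma 3.58.1 in R 4.3.3 (lmFit, eBayes with trend) was run two-sided on log2(FPKM + 1), which understates changes of low genes, with Benjamini-Hochberg adjustment over all genes with a mean of at least 1 FPKM. The code was tested on simulated data. Where 1 library was left out, the pair that remained was assumed to vary like the full group. Python 3.11.15 and Biopython 1.88 were used for sequences.

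Members and lists were chosen with earlier results of these data known. Named members were the called ones with the largest change in each subfamily (up to 4), the most abundant of each, those under the minimum with a group mean of at least 0.5 FPKM and groups apart, and Abcb1a with Abcb1b. Of each other list they were the called genes with the largest rise and fall. All other genes and members were described after their values were seen. Members outside the table were not analysed here, and some genes that are counted are not reported here by name. Alternatives covered pseudocount, minimum, scaling, variance model, threshold, block, batch and each library left out.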

Additional observations from a re-analysis of the deposited data

How the results depend on the processing

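Of the 13 called members reported by name, 8 stayed called under all 18 alternatives set at the start (Abca1, Abcc3, Abcc4, Abcc5, Abcc10, Abcd4, Abce1 and Abcf2), where those with too low a mean for a stricter minimum are counted over the others, and none of the 13 changed sign. Over the 20 tested members reported by name, 296 refitted values kept sign and side of the threshold, 47 lost and 6 gained a call, and 6 changed sign, all in members not called. The number of members called was 9 in replicates 1 and 3 alone (2 up), against 4195 of all tested genes, and the cause was not tested. It was 9 at an adjusted p under 0.01 (2 up), where a stricter threshold can only lower the number. It was 9 to 13 without 1 library, with 2 to 4 up and 7 to 11 down; the 9 was without TGF-β1 replicate 3, and the 2 up without Control replicate 3, TGF-β1 replicate 2 or TGF-β1 replicate 3. It was 10 with a mean of at least 3 FPKM, where fewer members were tested. The number up was 2 with upper quartile scaling, against 2573 of all tested genes, and the cause was not tested. At an adjusted p under 0.01, 3672 of all tested genes were called, 1727 of them down, and of the lists 1 peroxisomal, 6 ribosome and 1 xenobiotic gene. The count was 4419 to 5446 for all genes without 1 library. In replicates 1 and 3 alone 3 peroxisomal genes were called; without 1 library it was 2 to 6 (2 without Control replicate 3, and 3 without Control replicate 2, TGF-β1 replicate 1 or TGF-β1 replicate 3), and for xenobiotic receptors 1 to 3, with 1 without Control replicate 1 or TGF-β1 replicate 1 and 1 with a mean of at least 3 FPKM. Without a minimum 1 gene of the superfamily list (Cftr) was called.

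On the log2 scale the sign changed for Abcf1 (0.12 in replicates 1 and 3 alone and -0.11 to 0.064 without 1 library), Abca7 (0.067 with quantile normalization and -0.20 to 0.0055 without 1 library) and Abca2 (-0.505 to 4.2e-04 without 1 library). The cause was not tested.

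Both groups carry the numbers 1 to 3 in the labels. Deviations of same-numbered libraries from their group means correlated at 0.092, 0.232 and 0.085 across genes, and TGF-β1 replicate 3 correlated best with Control replicate 1 (0.117), so the numbers were not taken as a pairing. With the replicate block 12 members were called, 2 up and 10 down, and 5391 of all tested genes. In that fit Abca5, Abcb1b and Abcg2 were not called (limma adjusted p 0.0910, 0.0712 and 0.0888) and Abcb6 was (0.0387). With the block and no minimum, a fit added after the data were seen, Abcb1a was called (log2 change 0.68, SE 0.13, limma adjusted p 0.0311). Depth limits the members under 1 FPKM and the values on short transcripts (Abcd3, Abcg2 and Abcb8).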
